A study of Mus musculus with 8 samples.

Results

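Transcripts of 9 complement components and regulators were followed in MC38 cells, a murine colon adenocarcinoma line: C1s1, C1ra, C4b, C2, C3, Cfb, Masp1, Serping1 and Cd55. They are 9 of the 22142 genes measured with IFNγ and of the 22288 measured without it, matched by gene name, and all 9 were found in both tables. The genes were chosen by name, with their values in these samples, above all the difference between DENR KO and control cells with IFNγ, already known, and Masp1 was set against C1s1 because it differs the other way in the knockout. RNA-seq was made from 8 samples in 4 groups of 2, which were control MC38 cells labelled wild type and DENR KO MC38 cells, each either left untreated or treated with IFNγ at 20 ng/ml for 4 h. All 4 groups share the MC38 background. The study made its stable knockout cells with lentivirus carrying Cas9 and sgRNAs, and whether the DENR KO samples come from 1 clone, 1 guide or a pool is not given in the sources used here.

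Complement is a cascade of plasma and cell-surface proteins that coats targets with fragments of C3 and can end in a pore in the target membrane. The classical pathway starts with the proteases C1r and C1s, of which C1s acts on C4 and C2. The lectin pathway starts with the MASP proteases, and the alternative pathway amplifies through factor B. C1 inhibitor and CD55 restrain these steps. Most plasma complement is made in the liver, but many cell types, tumor cells among them, transcribe some of its components, and IFNγ is known to raise several of them. DENR is a factor in translation re-initiation on mRNAs with upstream open reading frames, and the knockout was studied for its effect on the response to IFNγ.

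The sequence around the start of transcription is shown for the 3 members that were lower in DENR KO cells with IFNγ and have a window in the RefSeq promoter table of GRCm38.p6, since these 3 rose together with IFNγ. Windows run from 250 bases before to 50 bases after a start, 4 of the 9 members have at least 1 (C1s1, C1ra, C3 and Cd55), and C4b, C2, Cfb, Masp1 and Serping1 have none in the table. The first 2 sequences below are the 250 bases before the start, outside the exons of their genes. The third is a stretch of 30 bases after the RefSeq start of C1ra, which lies in exon 1 of C1ra, in its 5 prime UTR, in the GENCODE annotation. All are written 5′ to 3′ on the strand of the gene. Capitals mark matches to TTNNGNAAT, a C/EBP-type motif, in C1s1 and C3, and to TTCNNNGAA, a GAS-type motif, in C1ra.
C1s1, chr6:124542360-124542609, minus strand: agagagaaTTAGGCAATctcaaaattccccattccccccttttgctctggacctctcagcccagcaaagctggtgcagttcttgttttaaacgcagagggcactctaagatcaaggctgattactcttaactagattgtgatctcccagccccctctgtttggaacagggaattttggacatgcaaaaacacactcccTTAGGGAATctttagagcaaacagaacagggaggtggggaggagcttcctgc
C3, chr17:57228137-57228386, minus strand: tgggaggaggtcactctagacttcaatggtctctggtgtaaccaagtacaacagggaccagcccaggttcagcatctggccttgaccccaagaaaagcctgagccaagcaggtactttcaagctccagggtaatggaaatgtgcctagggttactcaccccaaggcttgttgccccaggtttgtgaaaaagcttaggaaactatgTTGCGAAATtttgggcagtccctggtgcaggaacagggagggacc
C1ra, chr6:124512641-124512670, plus strand: gcaaatgcttcaTTCCCTGAAacattcctc

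On both strands, TTCNNNGAA was found in 8.3% of 32851 promoter windows, the paired interferon regulatory factor motif GAAANNGAA in 8.56% and TTNNGNAAT in 11.5%. Among the windows of the members, TTCNNNGAA matched once, in C1ra at position 33 after the RefSeq start. TTNNGNAAT matched at positions -242 and -52 of C1s1, -45 of C3, and -73 and -30 of C1ra, counted from the RefSeq start (for C1s1, the first of its 2 starts in the table) to the first base of the match, and no 2 matches overlapped. No GAAANNGAA match was found in any of them, and the Cd55 window held no match to any of the 3 motifs. In the GENCODE annotation C1ra starts 216 bases before its RefSeq start, so its TTNNGNAAT matches lie in its exon 1 there. These motifs were chosen after the windows had been read, and a match is a description of letters and not a binding site.

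Denr itself was checked first. Its normalized count, the number of reads on a gene divided by 1 size factor per sample, was 1438 and 1401 in control cells and 946 and 957 in DENR KO cells with IFNγ, and 1448 and 1297 against 943 and 916 without it. Denr mRNA in DENR KO cells thus stood at 67.0% of control with IFNγ and 67.7% without it. By limma it differed at adjusted p = 8.2e-06 and 0.00011. The study checked the knockout in MC38 cells by western blot, and mRNA counts do not measure the DENR protein that remained. Each sample held between 17369020 and 18403790 reads on genes. Of the epithelial marker list, Epcam and Cdx2 were in neither table and the other 6 genes summed to between 12.7 and 27.5 normalized counts in every sample, while the fibroblast list summed to between 18983 and 23924. Most of that sum was Col1a2 (9429 to 12380) and Dcn (3487 to 6617), whereas Lum was in neither table and Thy1 had at most 2 reads in any sample. The hepatocyte list, for the cells that make most plasma complement, summed to between 3.02 and 15.7.

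C1s1 and C1ra encode the C1s and C1r proteases that start the classical pathway, and they lie side by side on chromosome 6, C1s1 at 124530345 to 124542359 on the minus strand and C1ra at 124512405 to 124523443 on the plus strand (GRCm38). In untreated cells, C1s1 had normalized counts of 271 and 310 in control and 355 and 353 in DENR KO samples. With IFNγ it reached 2332 and 2390 in control samples and 1509 and 1391 in DENR KO samples. Both DENR KO samples therefore lay above both controls without IFNγ and far below them with it. C1s1 in DENR KO cells was 61.4% of control with IFNγ (log2 difference -0.70 ± 0.07, SE, n = 2 per group) and 122% of control without it (0.29 ± 0.12). Each SE of a log2 difference, here and below, is the moderated one of limma, which draws on the spread of all genes in the fit. In bulk RNA, fewer cells expressing a gene and less RNA per cell cannot be told apart, here and in every result that follows.

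C1ra followed C1s1. It stood at 159 and 156 normalized counts in untreated control samples, 164 and 182 in untreated DENR KO samples, 1050 and 998 in control samples with IFNγ, and 702 and 630 in DENR KO samples with IFNγ. As for C1s1, the DENR KO samples were lowest of the treated cells and highest of the untreated ones, although the untreated gap was small. The log2 difference was -0.62 ± 0.08 (SE, n = 2 per group) with IFNγ and 0.13 ± 0.15 without it, and the untreated difference did not pass the limma test (adjusted p = 0.85). The difference of the knockout effect between the treatments was -0.99 ± 0.12 for C1s1 and -0.75 ± 0.15 for C1ra on the log2 scale. Differences with IFNγ, and between the treatments, are given here for the 9 members without a test, because the members were chosen with them known.

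To set levels with and without IFNγ side by side, all 8 samples were scaled together by the median ratio over 16330 genes, since the 2 tables had been normalized separately. On that scale C1s1 went from 283 ± 28.0 to 2427 ± 42.1 (SD, n = 2) in control cells, a ratio of 8.58, and from 344 ± 1.16 to 1481 ± 85.5 in DENR KO cells, a ratio of 4.31. C1ra went from 153 to 1053 in control cells, 6.86-fold, and from 168 to 680 in DENR KO cells, 4.05-fold. Among 10413 genes with a mean of at least 100, 2.68% rose more than 2-fold with IFNγ in control cells and 1.94% in DENR KO cells. C1s1 ranked 58 from the top of these genes in control cells and 78 in DENR KO cells, and C1ra ranked 70 and 92. Both proteases were thus among the more strongly raised transcripts in either genotype, and the treated levels were lower in DENR KO cells for both.

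**Figure D1:**
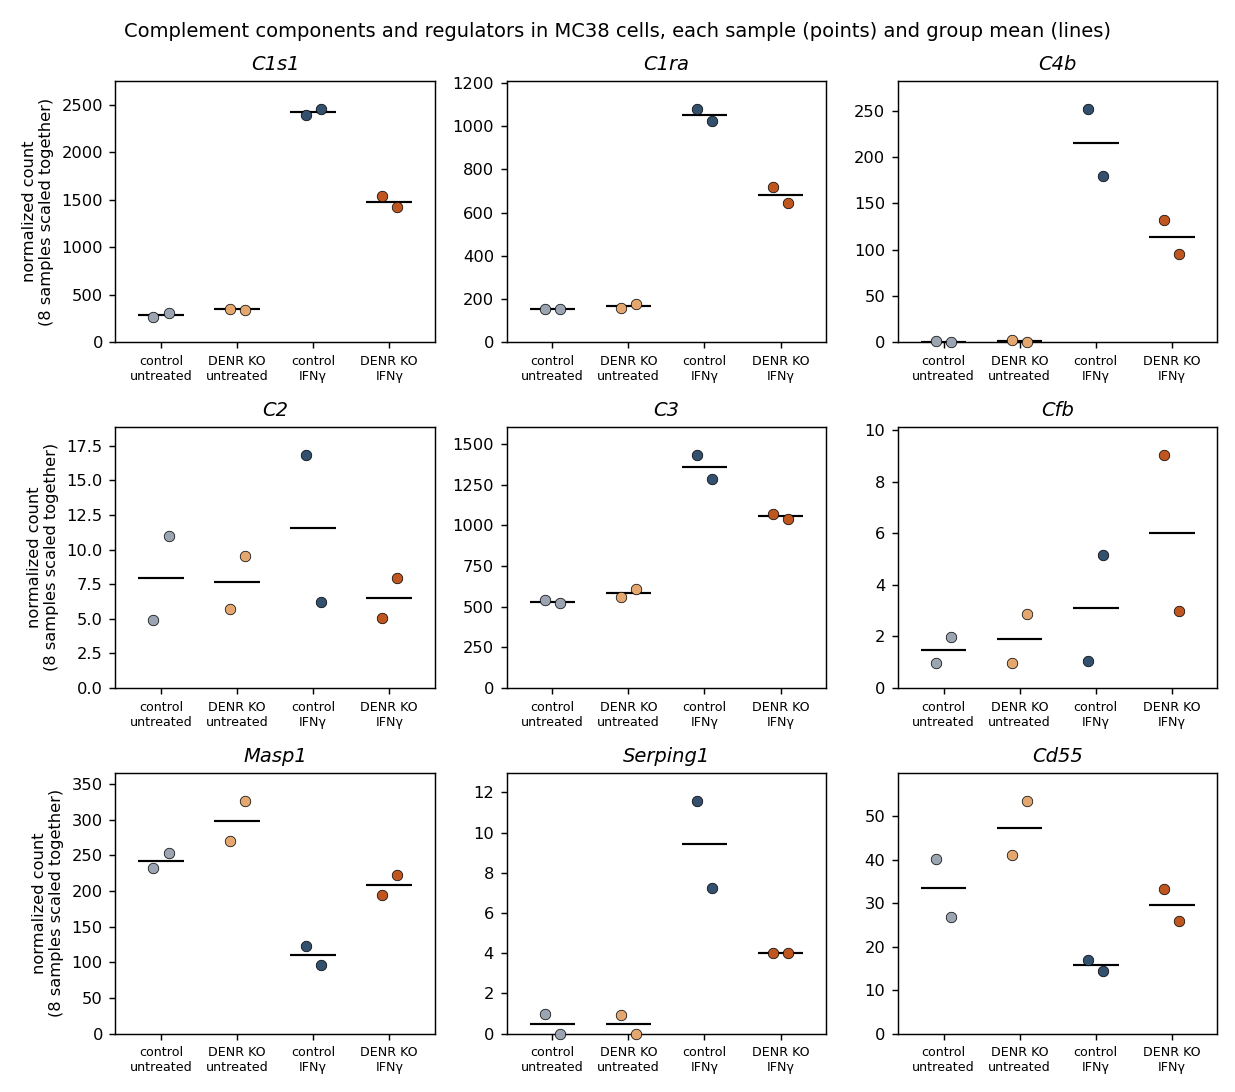
Normalized counts of the 9 members in each of the 8 samples (points, y axis from 0, all samples scaled together) with the mean of each group of 2 (lines), for control and DENR KO cells without and with IFNγ. C1s1, C1ra, C4b and C3 are highest in control cells with IFNγ, Masp1 and Cd55 are lowest there, and C2, Cfb and Serping1 stay below 20 counts in every sample.

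C4b and C2 encode the components that the C1s protease cuts to form the classical C3 convertase, and both lie in the complement gene cluster of the major histocompatibility complex on chromosome 17, C4b at 34728380 to 34743882 and C2 at 34862604 to 34898265. C4b was all but absent without IFNγ, with 1 read in the 2 control samples together and 2 reads in the 2 DENR KO samples. With IFNγ it had 245 and 174 normalized counts in control samples and 129 and 92.8 in DENR KO samples. The treated groups did not overlap, but the 2 samples of each group lay further apart than those of C1s1. DENR KO cells held 52.9% of the control level of C4b with IFNγ, a log2 difference of -0.91 ± 0.19 (SE, n = 2 per group). The ratio of treated to untreated C4b rested on 1 untreated read in control cells (441, 95% counting interval 77.8 to 17263) and on 2 in DENR KO cells (119, 32.5 to 986), so the 2 ratios cannot be ranked.

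C2 stayed low throughout. It had 5.03 and 11.2 normalized counts in untreated control samples, 5.89 and 9.83 in untreated DENR KO samples, 16.4 and 6.04 in control samples with IFNγ and 4.92 and 7.81 in DENR KO samples with IFNγ. All 4 groups overlapped, and no difference in C2 was detectable on so few reads. C2 and Cfb share 1656 and 2246 of their 3872 and 2825 exon bases with Gm20547, which runs across both genes on the same strand. Gm20547 is not among the genes measured. C2 also shares 161 exon bases with Zbtb12 on the opposite strand, whose group means were between 328 and 373 normalized counts. How reads that fit 2 genes were counted is not given in the sources used here. The part of these overlaps in the C2 and Cfb counts was not tested.

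C3, the component on which all 3 pathways converge, was the highest member in untreated control cells per length of transcript. It lies on chromosome 17 at 57203970 to 57228136, away from the cluster that holds C4b. Its normalized counts were 555 and 534 in untreated control samples and 574 and 628 in untreated DENR KO samples. With IFNγ they were 1395 and 1248 in control samples and 1049 and 1016 in DENR KO samples. The DENR KO samples again lay above the controls without IFNγ and below them with it, and with IFNγ the log2 difference was smaller than for C1s1 and C1ra. On the log2 scale C3 in DENR KO cells differed from control by -0.35 ± 0.08 (SE, n = 2 per group) with IFNγ and by 0.14 ± 0.09 without it (limma adjusted p = 0.68). On the joint scale C3 rose 2.56-fold with IFNγ in control cells and 1.81-fold in DENR KO cells, ranking 191 and 250 among the 10413 genes.

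Cfb encodes factor B, the protease of the alternative C3 convertase, at 34856374 to 34862518 on chromosome 17 beside C2. It was close to the limit of detection, with 1 to 9 reads in every sample. As 2246 of its 2825 exon bases are shared with Gm20547, low counts need not mean low expression, which was not tested. Normalized counts were 1.01 and 2.04 in untreated control, 0.98 and 2.95 in untreated DENR KO, 1.02 and 5.03 in treated control and 8.86 and 2.93 in treated DENR KO samples. The groups overlapped between genotypes in both treatments. With so few reads a rise of Cfb with IFNγ was not detectable in control cells, where the ratio of 2.10 had a 95% counting interval of 0.45 to 13.1. In DENR KO cells the ratio was 3.15, on 4 untreated and 12 treated reads, and its interval of 0.95 to 13.4 also included 1.

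Masp1 encodes a protease of the lectin pathway. Its response to IFNγ, and its difference between genotypes with IFNγ, ran against those of C1s1, C1ra, C3 and C4b. Masp1 lies on chromosome 16 at 23449417 to 23520815 on the minus strand. Untreated control samples held 239 and 259 normalized counts and untreated DENR KO samples 279 and 336. With IFNγ the control samples held 120 and 93.6 and the DENR KO samples 191 and 218. DENR KO samples were thus higher than control samples in both treatments, and the gap was wider with IFNγ. The level in DENR KO cells was 191% of control with IFNγ, a log2 difference of 0.94 ± 0.16 (SE, n = 2 per group), and 123% of control without it, 0.30 ± 0.13. On the joint scale Masp1 was 2.21-fold lower with IFNγ than without it in control cells (110 ± 19.1 against 243 ± 14.3, SD, n = 2) and 1.43-fold lower in DENR KO cells (209 ± 19.4 against 299 ± 39.9).

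Of the 10413 genes, 0.278% were lowered more than 2-fold by IFNγ in control cells and 0.0384% in DENR KO cells, and Masp1 ranked 15 from the bottom in control cells and 59 in DENR KO cells. On the opposite strand, Rtp4 (23520291 to 23614222) and Gm45338 (23520210 to 23560081) overlap the first bases of the Masp1 gene but share 0 exon bases with it. Both were looked at after the values of Masp1 were known. Rtp4, an interferon-induced gene, rose 33.2-fold with IFNγ in control cells and 24.5-fold in DENR KO cells, whereas Gm45338 was 4.58-fold and 2.07-fold lower, on 6 and 23 treated reads. How strand was handled in counting is not given in the sources used here, and the part of these neighbours in the Masp1 counts was not tested.

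**Figure D2:**
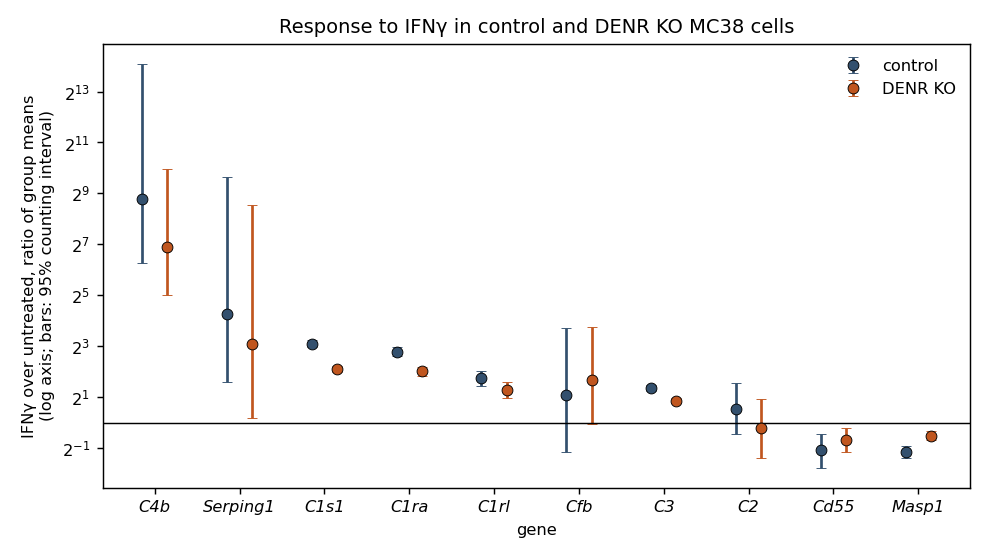
Ratio of the group means with IFNγ over those without it (y axis, log scale) for the 9 members and C1rl in control and DENR KO cells, with 95% counting intervals as bars. C1s1, C1ra, C1rl and C3 lie above 1 and lower in DENR KO than in control cells, Masp1 and Cd55 lie below 1 and nearer to it in DENR KO cells, and the wide bars of C4b, Serping1 and Cfb rest on few untreated reads.

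The regulators were low. Serping1, which encodes the C1 inhibitor that inactivates C1r, C1s and the MASP proteases, lies on chromosome 2 at 84765387 to 84775444. It had at most 1 read in any untreated sample, 11.3 and 7.05 normalized counts in control samples with IFNγ, and 3.94 and 3.91 in DENR KO samples with IFNγ. The treated groups did not overlap, on 18 reads in the control and 8 in the DENR KO samples. The ratio to untreated cells was 19.3 in control cells (95% counting interval 3.01 to 794) and 8.41 in DENR KO cells (1.13 to 373), each on 1 untreated read. Both intervals lay above 1, but they cover counting error only, and replicates of a group differed by more than sampling noise. A rise of Serping1 with IFNγ was not tested, and its extent is uncertain.

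Cd55 encodes decay-accelerating factor, a membrane protein that breaks up C3 convertases on the cell's own surface, on chromosome 1 at 130439027 to 130462744. Its normalized counts were 41.3 and 27.6 in untreated control samples, 42.2 and 55.0 in untreated DENR KO samples, 16.4 and 14.1 in treated control samples and 32.5 and 25.4 in treated DENR KO samples. Cd55 thus had the pattern of Masp1, with the lowest values in control cells with IFNγ, at much lower counts. The log2 difference between DENR KO and control was 0.88 ± 0.37 (SE, n = 2 per group) with IFNγ and 0.50 ± 0.30 without it, where limma gave an adjusted p = 0.63. On the joint scale Cd55 was 2.14-fold lower with IFNγ in control cells and 1.60-fold lower in DENR KO cells. Cd55 shares 102 of its 4853 exon bases with Gm16083 on the opposite strand, which is not among the genes measured.

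**Figure D3:**
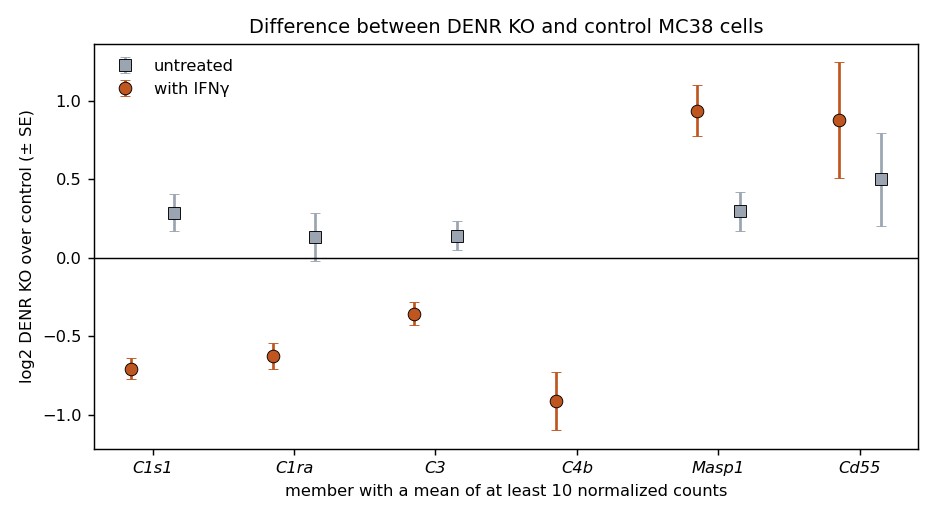
Log2 difference of DENR KO over control (y axis, points ± moderated SE of limma, n = 2 per group) for the members that averaged at least 10 normalized counts, without and with IFNγ. C1s1, C1ra and C3 lie just above 0 untreated and below 0 with IFNγ, C4b passed the minimum only with IFNγ, and Masp1 and Cd55 lie above 0 in both.

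Across the members, 6 of 9 passed the minimum mean of 10 with IFNγ, and C4b did so only through its treated level. Of these 6, C1s1, C1ra, C3 and C4b were lower and Masp1 and Cd55 higher in DENR KO cells, with a median log2 difference of -0.49 against 0.00 over all genes, and in all 6 the groups did not overlap. That was so for 42% of 13928 genes, and 1.03% of genes were called lower and 0.517% higher by limma at an adjusted p under 0.05 and a log2 difference beyond 0.5. These shares are given as background only, because the choice of members used this contrast. Without IFNγ 5 of 9 members passed the minimum, all 5 were higher in DENR KO cells without overlap, as 39.9% of 13998 genes were free of overlap in either direction, and the median was 0.29 against 0.00. Of these, C1ra, C3 and Cd55 were tested and none was called, beside 0.129% of genes called higher and 0.0857% called lower. At an unadjusted p under 0.05 none of the 3 would pass either, the lowest being 0.10 for Cd55, and under every alternative that kept all samples, DESeq2 and edgeR among them, the log2 differences of the 3 stayed between 0.13 and 0.51. Leaving out 1 sample moved them more, C1ra from 0.06 (without DENR KO sample 2) to 0.21 (without DENR KO sample 1), C3 from 0.08 to 0.21 without the same samples, and Cd55 from 0.22 (without control sample 2) to 0.78 (without control sample 1). Untreated Masp1 likewise ran from 0.16 without DENR KO sample 2 to 0.43 without DENR KO sample 1, and C1s1 from 0.19 without control sample 1 to 0.39 without control sample 2. The effect of the knockout differed between the treatments, by limma at an adjusted p under 0.05, in a small share of genes. The sign was negative in 0.429% of genes and positive in 0.0214%. Again as a description, the difference was -0.99 for C1s1, -0.75 for C1ra, -0.49 for C3, 0.64 for Masp1 and 0.37 for Cd55. C4b, at -1.19 ± 0.72 (SE), passed the filter only through its treated level. Its untreated side rested on 1 read in control and 2 reads in DENR KO cells.

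C1s1 and Masp1 are proteases of related build that start 2 different pathways, and the gap between their levels widened with IFNγ, C1s1 being the higher in all 4 groups. Per length of transcript, as RPKM (reads scaled to exon length and to the reads on genes of the sample), C1s1 had 5.17 ± 0.53 and Masp1 1.41 ± 0.09 in untreated control cells (SD, n = 2), and 42.3 ± 0.64 and 0.61 ± 0.11 in control cells with IFNγ. In DENR KO cells the pair had 6.26 ± 0.04 and 1.73 ± 0.23 untreated and 26.2 ± 1.47 and 1.18 ± 0.11 with IFNγ. In DENR KO cells with IFNγ, C1s1 was thus lower and Masp1 higher than in control cells with IFNγ, so that the levels of both stood between those of untreated and of treated control cells. Untreated, both were higher in DENR KO than in control cells.

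**Figure D4:**
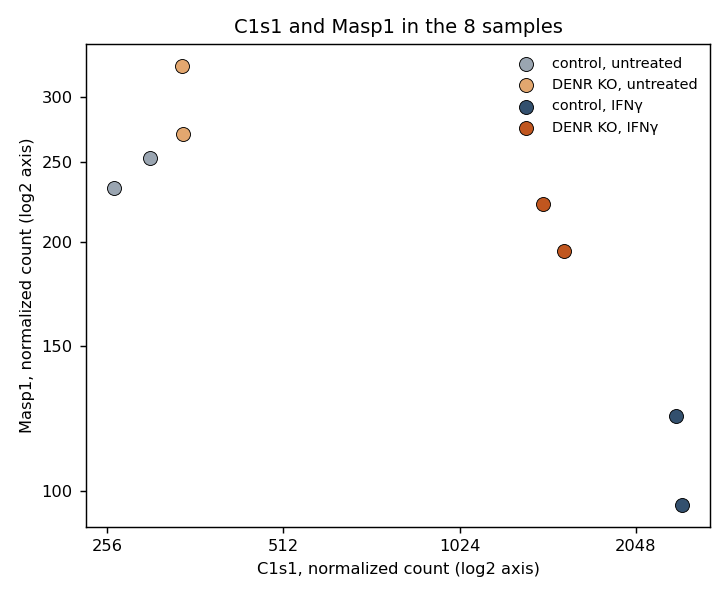
Normalized count of C1s1 (x axis, log2 scale) against that of Masp1 (y axis, log2 scale) in each of the 8 samples, scaled together. The 2 treated control samples sit at the lower right, the 2 treated DENR KO samples between them and the 4 untreated samples, which sit at the upper left.

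The order of the 9 levels per length changed with IFNγ. In untreated control cells C3 (5.89 RPKM) and C1s1 (5.17) led, followed by C1ra (2.94), Masp1 (1.41), Cd55 (0.39) and C2 (0.12). The samples of each of these did not overlap those of the next gene in the order. Cfb, Serping1 and C4b, all at or below 0.030, could not be ordered. In untreated DENR KO cells C3 (6.47) and C1s1 (6.26) overlapped. With IFNγ the order in control cells was C1s1 (42.3), C1ra (19.3), C3 (14.4), C4b (2.07) and Masp1 (0.61), followed by Serping1, Cd55, C2 and Cfb between 0.22 and 0.060, whose neighbours in the order overlapped. In DENR KO cells with IFNγ C1s1 (26.2), C1ra (12.6) and C3 (11.4) kept that order, and Masp1 (1.18) and C4b (1.10) overlapped. C1s1, C1ra and C3 thus made up most of the transcripts of these 9 genes in every group.

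The genes whose level over the 8 samples was most like that of C1s1, among 10324 named genes with a mean of at least 100, were Enc1 (Pearson r = 0.9992), Nfkb1 (0.9985), Rftn1 (0.9983), C1ra (0.9975) and Irf2 (0.9972), on log2(joint normalized count + 1). Enc1, for example, had group means of 1049 and 1204 in untreated control and DENR KO cells and 4811 and 3399 with IFNγ. The genes most like Masp1 were Pxylp1 (0.9923), Fbxo10 (0.9861), Dock8 (0.9790), Nectin1 (0.9788) and Kcnh2 (0.9783). Dock8 had group means of 805 and 1042 in untreated control and DENR KO cells and 433 and 744 with IFNγ. These values describe likeness over 8 points that fall into 4 groups and share their libraries.

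Of 47 other complement genes, 26 were in either table, 24 with IFNγ and 25 without. None of C1qa, C1qb and C1qc, the C1q chains that bind C1r and C1s in the C1 complex, was in either table. With IFNγ 16 passed the minimum mean, and limma called 0 lower and 0 higher in DENR KO cells, beside 1.03% and 0.517% of 13928 genes. At an unadjusted p under 0.05 there were 4, and DESeq2 and edgeR called 0 as well. The median log2 difference of the 16 was -0.03 against 0.00 over all genes. Without IFNγ 15 passed and 1 was called, Clu, which was higher in DENR KO cells, beside 0.129% of 13998 genes called higher. At an unadjusted p under 0.05 there were 4, and the median of the 15 was -0.02. For the difference of the knockout effect between the treatments, 14 passed and limma, DESeq2 and edgeR called 0. Over 13998 genes, limma called 0.429% with a negative and 0.0214% with a positive sign. At an unadjusted p under 0.05 by limma there was 1 of the 14, and their median was -0.05. The share of all genes at an unadjusted p under 0.05 was not computed, so the counts at that limit have no background beside them.

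Clu encodes clusterin, a secreted chaperone that also binds the terminal complex. Untreated, it had 154 and 138 normalized counts in control and 252 and 222 in DENR KO samples, a log2 difference of 0.70 ± 0.15 (SE, n = 2 per group, limma adjusted p = 0.016). With IFNγ it had 158 and 111 in control and 170 and 243 in DENR KO samples, 0.62 ± 0.19 (limma adjusted p = 0.10). In both treatments the DENR KO samples were the higher ones. The untreated call was lost by DESeq2, by edgeR, in a fit over all 8 samples, and when control sample 1, control sample 2 or DENR KO sample 1 was left out.

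By role, the 5 initiation genes tested with IFNγ gave 0 calls. C1rl, a protease related to C1r beside C1ra on chromosome 6, had 210 and 184 normalized counts in control and 144 and 133 in DENR KO samples with IFNγ, and 57.3 and 67.4 against 51.0 and 69.8 without it. The treated groups did not overlap, the log2 difference was -0.51 ± 0.15 (SE, n = 2 per group), and the limma adjusted p was 0.059. C1rl was 3.34-fold higher with IFNγ than without it in control cells and 2.41-fold higher in DENR KO cells. Fcna, which encodes a ficolin of the lectin pathway, stayed between 102 and 142 normalized counts in all 8 samples.

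The near-copies of members carried few reads. C1s2 had at most 10 reads and C1rb at most 27 in any sample, and C1rb varied within groups, for example 27 and 5 reads in the 2 control samples with IFNγ and 1 and 20 in the 2 untreated DENR KO samples. C4a had 19.1 and 14.3 normalized counts in untreated control, 26.5 and 33.4 in untreated DENR KO, 21.5 and 27.2 in treated control and 31.5 and 19.5 in treated DENR KO samples, and so did not share the rise of C4b. Reads that fit both copies of such a pair could have been counted for either or dropped, so the division between C1s1 and C1s2, C1ra and C1rb, and C4b and C4a is uncertain. C1s1 also shares 576 of its 3129 exon bases with Gm16567 on the opposite strand, which is not among the genes measured.

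Of 2 terminal genes tested with IFNγ and 1 without, none was called. Hc, which encodes C5, had 6.15 and 9.06 normalized counts in control and 12.8 and 18.6 in DENR KO samples with IFNγ (log2 difference 0.95 ± 0.50, limma adjusted p = 0.43), and 11.1 and 11.2 against 4.91 and 3.93 without it, where it fell under the minimum mean. C8g, the gamma chain of C8, stayed between 32.2 and 40.8 in all 8 samples.

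Among 5 regulators tested in each treatment, Clu without IFNγ was the only call. Cr1l, which encodes Crry, the membrane regulator of C3 convertases in mice, was the highest of them, with 897 to 1160 normalized counts in all 8 samples and log2 differences of -0.08 ± 0.08 and -0.13 ± 0.09 with and without IFNγ (limma adjusted p = 0.77 and 0.66). Thbd, thrombomodulin, had 246 and 293 normalized counts in control and 395 and 320 in DENR KO samples with IFNγ (limma adjusted p = 0.079).

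Receptors gave 0 calls among 4 tested with IFNγ and 5 without. C1qbp, a multifunctional mitochondrial protein that binds C1q, was the highest complement-related gene, with 3843 to 4211 normalized counts in all 8 samples and a log2 difference of -0.02 ± 0.06 with IFNγ (limma adjusted p = 0.93). C3ar1, the receptor for C3a, had 67.7 to 131 normalized counts, and its group means with IFNγ were 1.37-fold the untreated ones in control and 1.48-fold in DENR KO cells. Itgb2, the beta chain of the complement receptors CR3 and CR4, was singled out after its values were seen. It had 10.2 and 9.06 normalized counts in control and 29.5 and 22.5 in DENR KO samples with IFNγ, and 23.1 and 22.5 against 18.6 and 11.8 without it. The change of sign gave a difference of the knockout effect of 1.92 ± 0.57 on the log2 scale, which did not pass the limma test (adjusted p = 0.26).

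**Figure D5:**
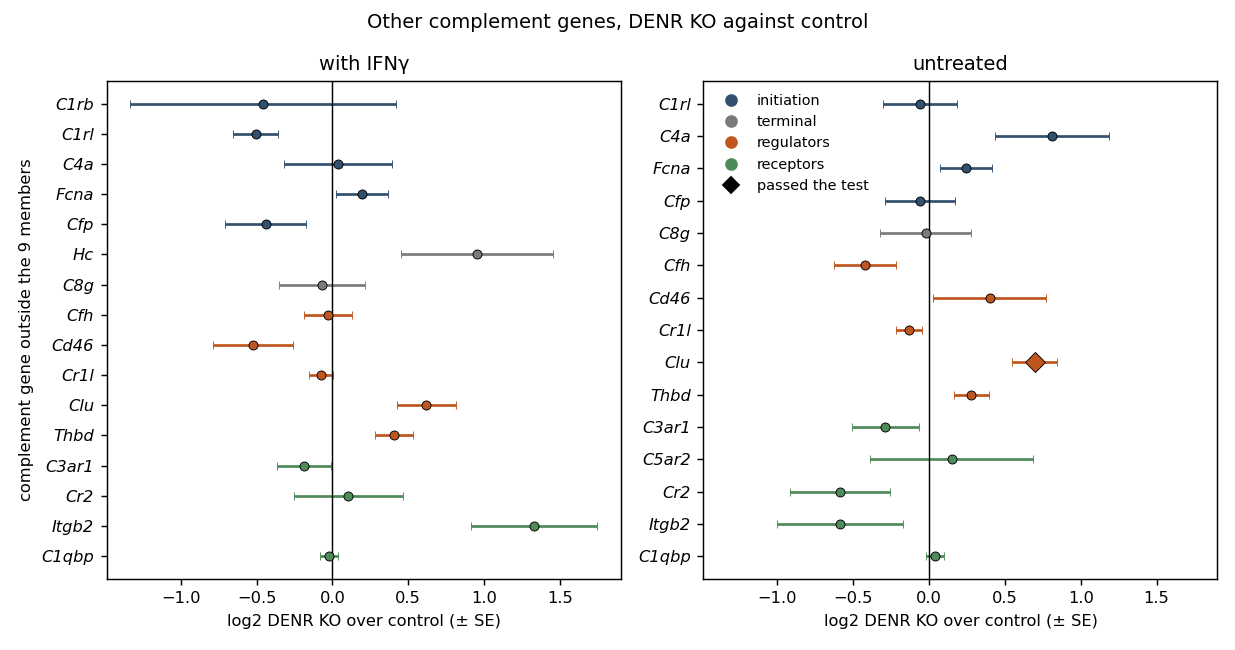
Log2 difference of DENR KO over control (x axis, points ± moderated SE of limma, n = 2 per group) for the complement genes outside the 9 members that passed the minimum mean, 16 with IFNγ and 15 untreated, coloured by role. The diamond marks Clu, the 1 gene that passed the limma test, at 0.70 untreated, and C1rl lies at -0.51 with IFNγ.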

How the data were processed

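Poly-A selected RNA of 8 MC38 samples was sequenced as paired ends. The submitters' processing notes name HISAT2 (2.0.5), StringTie (1.3.3b), featureCounts (1.5.0-p3) and DESeq2 (1.20.0), without their roles. They name mm9, but 36 of 36 genes checked have their GRCm38 coordinates. The authors deposited, for each treatment, a normalized signal per gene and sample, obtained by dividing reads by a size factor of the sample. Deposited alongside were group means, log2 fold changes of DENR KO over control and p-values from the authors' own comparison, none of which were used. In each sample 100% of values were whole multiples of the smallest one (tolerance 0.01), so reads were recovered.

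limma (3.58.1, R 4.3.3, trend and robust) was fitted within each table on log2(normalized count + 1), over all genes with a mean of at least 10, with Benjamini-Hochberg adjustment. A gene was called at an adjusted p under 0.05 and a log2 difference beyond 0.5, and the difference between treatments at an adjusted p under 0.05 over 20432 shared genes, 13998 of which passed the filter. Log2 values understate changes of low genes. DESeq2 (1.42.0) and edgeR (4.0.16) on recovered reads were alternatives. Each test was tested on simulated data. Ratios across treatments used jointly scaled reads and carry no test. Counting intervals (95%) cover counting error only. Replicates of a group differed by more than sampling noise (chi-square per degree of freedom 3.49 to 5.90). The labels do not say whether samples were separate cultures, so p-values measure the spread between samples.

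The members and gene lists were chosen with earlier results of these data known. Named genes are the 9 members, Denr, other complement genes that were called, the 2 highest per role, and the 5 genes most correlated with C1s1 and with Masp1. Outside that rule, Itgb2, the near-copies C1s2, C1rb and C4a, the Masp1 neighbours Rtp4 and Gm45338, and the C2 neighbour Zbtb12 were named after their values were seen. Macrophage markers summed to 401 to 571 normalized counts, nearly all Cd14 (342 to 481) and Cd68 (51.3 to 78.6), with Adgre1 and Fcgr1 in neither table and at most 3 reads of Ptprc, 2 of Lyz2 and 4 of Csf1r in any sample. Endothelial markers summed to 23.4 to 35.2.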

Additional observations from a re-analysis of the deposited data

Results flagged for a closer look

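For 3 members every DENR KO sample lay below every control sample with IFNγ and above every control sample without it. The log2 difference of DENR KO over control was -0.70 with IFNγ and 0.29 untreated for C1s1, -0.62 and 0.13 for C1ra, and -0.35 and 0.14 for C3. The difference between the treatments was not tested for these genes, because they were chosen with it known. Groups did not overlap, in either direction, for 42% of 13928 tested genes with IFNγ and 39.9% of 13998 untreated. The share of genes with both, in opposite directions, was not computed.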

How the results depend on the processing

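The log2 difference between DENR KO and control kept its direction for the members that passed the minimum mean of 10 (6 with IFNγ, 5 untreated) under each alternative run (pseudocounts of 0.5 and 5, no filter, a minimum mean of 50, DESeq2, edgeR, the replicate block, 1 fit over all samples, and each sample left out in turn), with Cd55 under the minimum mean of 50 and so without a value there. The differences of Serping1, Cfb, C2 and untreated C4b were not put through the alternatives. The count of other complement genes called with IFNγ was 0 and became 2 with the replicate block (C1rl lower, Itgb2 higher) and between 1 and 2 with a sample left out (Clu without control sample 1 or DENR KO sample 1, C1rl and Thbd without control sample 2, Thbd without DENR KO sample 2). Untreated it was 1 (Clu) and became 0 by DESeq2, by edgeR and in 1 fit over all 8 samples, and ran from 0 to 1 with a sample left out. The cause was not tested. Sample numbers of control and DENR KO deviated together with a correlation of 0.22 with IFNγ and 0.05 untreated. The labels do not tie these 2 pairs. Between the treatments, equal sample numbers deviated together with a correlation of 0.23 in control and 0.02 in DENR KO cells. The replicate block, set within each treatment, raised the calls over all genes from 215 to 285 with IFNγ and from 30 to 66 untreated. For the difference between treatments it raised them from 63 to 150. DESeq2 called 147, 17 and 58 genes, and counting an adjusted p alone gave 565 and 81. The fit over all 8 samples called 158 genes with IFNγ and 28 without. The difference of the knockout effect for C4b ran from -1.98 to -0.41 with a sample left out, and that for Cd55 from 0.09 to 0.66. The response of Cfb to IFNγ in control cells, on the log2 scale, was 1.07 and ran from -0.49 to 1.80 with a sample left out. For C2 it was 0.54 in control cells (-0.35 to 1.24) and -0.23 in DENR KO cells (-0.60 to 0.19, with 0.06 without treated DENR KO sample 1), on few reads. Few reads limit C2, Cfb, Serping1 and untreated C4b.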
